A study of Mus musculus with 12 samples.

Results

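The axon degeneration pathway that runs from Nmnat2 to Sarm1 was described across the spinal cord libraries of the study by 10 genes: Sarm1, Nmnat1, Nmnat2, Nmnat3, Nampt, Mycbp2, Fbxo45, Map3k12, Map3k13 and Stmn2. The genes were chosen by name, as known members of the pathway and with earlier results of these data known, and each was matched by its mouse symbol to an Ensembl identifier. All 10 were found among the 49548 genes counted.

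RNA of the lumbar spinal cord was sequenced in 12 untreated mice at 30 days of age, with 1 library per mouse. The 8 MFN2 mice were MitoCharc1 animals, labelled CMT2A, with the transgene Tg(Eno2-MFN2*R94Q)L51Ugfm on a B6;D2 background. They are hemizygous for a human MFN2 transgene with the R94Q substitution and keep their own mouse Mfn2. The transgene is driven by the rat Eno2 promoter, mainly in neurons, and comes from a single transgenic line. The 4 WT mice were labelled C57BL/6, and the methods of the study describe WT littermates. The sex of the mice was not given in the sources used here. Total counts ranged from 19359454 to 26738930 in MFN2 libraries and from 19453238 to 23564568 in WT libraries. Libraries are named here by their numbers. WT libraries are numbered 44 to 47, and MFN2 libraries 41 to 43 and 72 to 76. The second run of numbers holds MFN2 mice alone, so that within libraries 72 to 76 the run and the genotype cannot be told apart.

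Axons degenerate by an active programme. Nmnat2, an enzyme that makes NAD+ from NMN, is unstable and is carried along the axon from the cell body, and when its supply stops, NMN rises and NAD+ falls. Sarm1, a neuronal enzyme that senses this ratio, then hydrolyses the remaining NAD+, and the axon breaks down. The pathway has been studied in peripheral neuropathies, of which CMT2A, caused by variants of MFN2, is an axonal form. In whole cord tissue, fewer cells of a type and less RNA per cell cannot be told apart, and RNA levels say nothing of enzyme activity.

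Library 43 stood apart from the other 11 in its marker genes, which differed from those that the labelled tissue showed in the other 11. The summed level of 8 forebrain markers was 4685 CPM (counts relative to the library size, scaled by the TMM method) in library 43 and between 109 and 207 CPM in the others. Nrgn, the most abundant of them per length, reached 551 CPM there against 11.7 to 25.4 CPM elsewhere. The summed level of 9 caudal Hox genes, which mark the lumbar segments, was 24.6 CPM in library 43 and between 94.6 and 185 CPM in the others. The same library was lowest in the sums of 6 motor neuron markers (35.5 CPM, against 154 to 370 CPM) and of 6 oligodendrocyte markers (7812 CPM, against 20524 to 33041 CPM). The sum of 12 neuronal markers was 7851 CPM in library 43 and 11874 to 16729 CPM in the others. The fold changes of the 10 genes in comparisons that hold library 43 are therefore also given without it.

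The remaining lists also varied. Schwann cell markers summed to 290 CPM in library 43 and 262 CPM in library 73, against 39.1 to 52.0 CPM in the other libraries. Of this list, Pmp2 was at 0 in all libraries but 43. Microglial markers summed to 80.0 to 103 CPM in libraries 72 to 76 and to 107 to 144 CPM in WT libraries, and astrocyte markers to 4963 to 6380 CPM and 6774 to 7751 CPM. The part of these differences in the levels of the pathway genes was not tested. The defining neuronal markers, such as the neurofilament gene Nefl (734 CPM in library 43 and 2548 to 3835 CPM in the others), were present in every library.

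**Figure D1:**
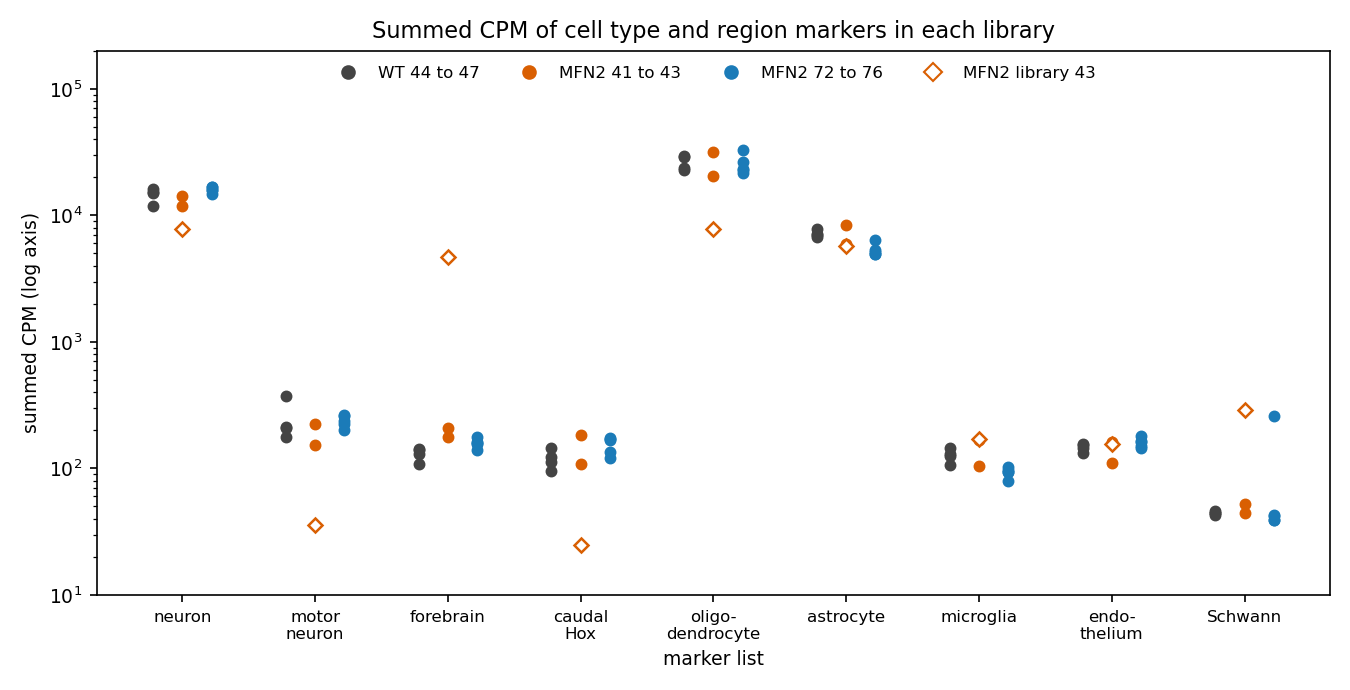
Summed CPM (log axis) of each marker list, with 1 point per library, in WT (grey), MFN2 libraries 41 to 43 (orange) and MFN2 libraries 72 to 76 (blue). The open diamond, library 43, lies at 4685 CPM for forebrain markers, above every other library, and at 24.6 CPM for caudal Hox genes, below every other library.

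To compare transcripts, levels were divided by exon length and given as RPKM (CPM per kilobase of merged exons), the scale used here for every comparison between genes. The methods of the study name sequencing of mRNA ends, poly(A) mRNA and a total RNA kit, so even coverage of transcripts is not settled. The order of genes depends on this division. Stmn2 was the most abundant at 53.1 ± 3.74 RPKM (mean ± SD, n = 12), followed by Nmnat2 at 33.9 ± 2.01 RPKM and Mycbp2 at 33.7 ± 2.13 RPKM. Nmnat2 lay above Mycbp2 in 6 of 12 libraries, so on this scale the pair did not differ beyond its spread. Undivided, the means were 196 CPM for Nmnat2 and 648 CPM for Mycbp2. Below them came Fbxo45 at 12.9 ± 0.701 RPKM, Nampt at 10.4 ± 0.857 RPKM and Map3k12 at 6.90 ± 0.685 RPKM. Sarm1 followed at 5.13 ± 0.463 RPKM, Map3k13 at 4.28 ± 0.327 RPKM and Nmnat1 at 2.06 ± 0.368 RPKM, and Nmnat3 was lowest at 0.294 ± 0.0720 RPKM. Each of these other neighbours kept its place in 12 of 12 libraries. Among the genes tested in all libraries, Stmn2 stood at percentile 96.7 of mean RPKM, Nmnat2 at 93.6, Sarm1 at 56.2 and Nmnat3 at 3.74.

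**Figure D2:**
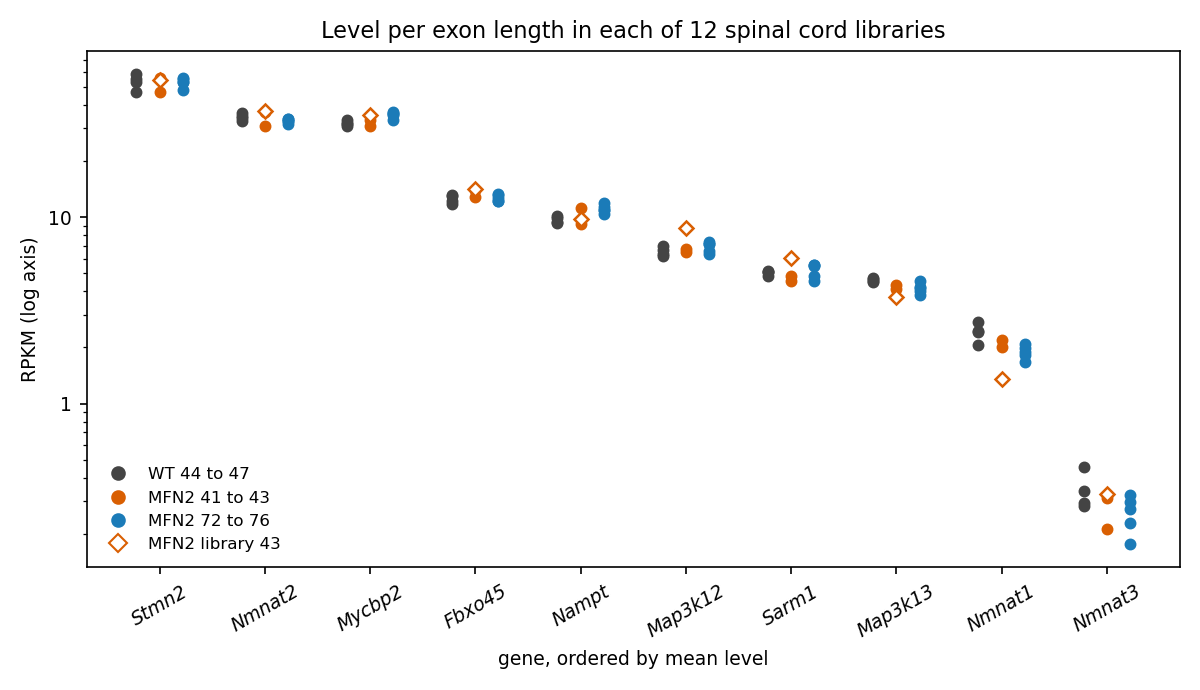
RPKM (log axis) of the 10 genes in each library, ordered by mean level, for WT (grey), MFN2 libraries 41 to 43 (orange) and 72 to 76 (blue), with library 43 as an open diamond. The levels span from 0.294 RPKM for Nmnat3 to 53.1 RPKM for Stmn2, and the 3 groups lie close together for each gene.

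The enzymes Nmnat1, Nmnat2 and Nmnat3 are paralogues that catalyse the same step, with Nmnat1 in the nucleus, Nmnat2 in the cytosol and on transport vesicles, and Nmnat3 in mitochondria. On GRCm38, Nmnat2 spans bases 152954993 to 153119261 of chromosome 1 (plus strand), Nmnat1 bases 149467572 to 149485202 of chromosome 4 (minus strand) and Nmnat3 bases 98287435 to 98420438 of chromosome 9 (plus strand). Since the levels of these 3 paralogues lay far apart, the 250 bases before a RefSeq start of each (GRCm38.p6) are shown for comparison, 5′ to 3′ on the strand of the gene, with every CG dinucleotide in capitals. These windows are chr1:152954851-152955100 (plus strand), chr4:149485211-149485460 (minus strand) and chr9:98296320-98296569 (plus strand).
Nmnat2: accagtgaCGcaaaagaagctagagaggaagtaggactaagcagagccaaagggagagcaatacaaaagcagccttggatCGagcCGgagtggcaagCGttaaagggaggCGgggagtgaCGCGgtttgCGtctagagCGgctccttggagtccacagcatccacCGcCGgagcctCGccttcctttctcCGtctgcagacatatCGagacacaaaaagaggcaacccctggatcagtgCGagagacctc
Nmnat1: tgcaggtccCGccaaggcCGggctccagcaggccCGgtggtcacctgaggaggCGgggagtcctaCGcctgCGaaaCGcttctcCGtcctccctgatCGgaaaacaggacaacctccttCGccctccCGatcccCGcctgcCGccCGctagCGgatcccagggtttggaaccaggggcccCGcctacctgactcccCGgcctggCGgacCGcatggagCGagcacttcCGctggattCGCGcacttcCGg
Nmnat3: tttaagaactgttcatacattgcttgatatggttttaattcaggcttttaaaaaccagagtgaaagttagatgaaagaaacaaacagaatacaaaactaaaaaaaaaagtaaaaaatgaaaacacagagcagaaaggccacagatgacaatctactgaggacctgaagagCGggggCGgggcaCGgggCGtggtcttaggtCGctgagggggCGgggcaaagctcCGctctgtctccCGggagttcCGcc
The dinucleotide CG, which reads the same on either strand, occurred 15 times before Nmnat2, 24 times before Nmnat1 and 9 times before Nmnat3. Of 32851 RefSeq windows of this length, 74.6% held as many CG or fewer than the Nmnat2 window, 89.3% than the Nmnat1 window and 62.2% than the Nmnat3 window, and the median was 6. In these windows the order of the CG counts was not that of the levels. A further Nmnat1 window (chr4:149485173-149485422, minus strand) held 23 CG, and the Nmnat3 window lies inside the gene span given above, past its start.

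Nmnat2 made up most of the Nmnat transcript in the cord. Its share of the summed RPKM of the 3 paralogues was 93.6%, 92.6%, 92.3% and 91.9% in WT libraries 44 to 47. In MFN2 libraries the share lay between 93.3% and 95.7%, with a median of 93.7%. Library 43 held the highest share, and the highest among the other 7 was 94.6%. Nmnat1 made up 5.53% to 6.95% in WT and 3.49% to 6.11% in MFN2 libraries, and 4.71% to 6.11% without library 43. Nmnat3 made up 0.741% to 1.29% in WT and 0.492% to 0.929% in MFN2 libraries. Shares are given as a description, without a test, and depend on the division by exon length.

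Because the programme turns on the balance of NMN-consuming and NAD+-consuming enzymes, the ratio of Nmnat2 to Sarm1 was taken within each library. It was 6.74, 7.02, 7.19 and 6.42 in WT libraries 44 to 47, on the RPKM scale. In MFN2 libraries it ranged from 5.86 to 7.58 with a median of 6.49, and without library 43 the range was the same and the median 6.83. The ranges of the genotypes overlapped. The ratio of Map3k12 to Map3k13 was 1.53, 1.38, 1.42 and 1.35 in WT libraries, and its median in MFN2 libraries was 1.61. Of the 8 MFN2 libraries, those numbered 42 and 76 fell within the WT range and the other 6 lay above it. Library 43 was the highest at 2.35, and the highest among the other MFN2 libraries was 1.92. These ratios were not tested.

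**Figure D3:**
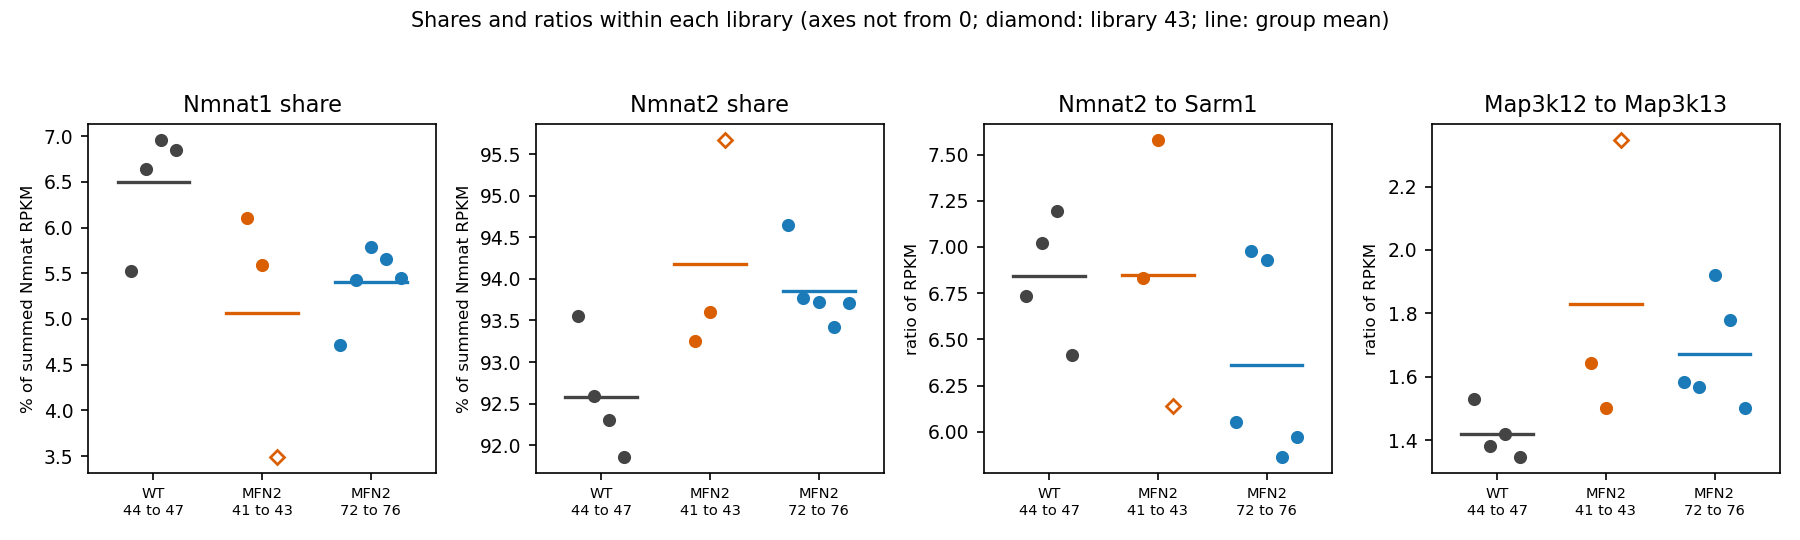
Share of Nmnat1 and Nmnat2 in summed Nmnat RPKM (percent) and ratios of RPKM of Nmnat2 to Sarm1 and of Map3k12 to Map3k13, with 1 point per library, a line at each group mean and library 43 as an open diamond. Nmnat2 accounts for 91.9% to 95.7% in all 12 libraries, and the ratio of Nmnat2 to Sarm1 stays between 5.86 and 7.58.

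Genotypes were then compared, first with all 8 MFN2 libraries against the 4 WT libraries, as in the design of the study. None of the 10 genes passed an FDR of 0.05 in the quasi-likelihood test of edgeR, adjusted by Benjamini-Hochberg (0 of 10). Neither did any other of the 15942 genes tested, which is 0% of them. The study itself reported differentially expressed genes between the genotypes, with the generalized linear models of edgeR at the same FDR. Why its count differs from the one here was not tested. At an unadjusted p under 0.05, Nmnat1 and Map3k13 were lower in MFN2 mice (2 of 10), where 2386 genes, or 15%, reached this level, 1179 of them higher and 1207 lower. DESeq2 called 200 genes (1.25%) in the same libraries, and 0 of the 10. The median log2 fold change of the 10 genes was 0.01, against 0.00 over all genes tested, with 5 of 10 above 0. The 95% intervals of 8 genes lay within 0.5 of 0 on the log2 scale, while those of Nmnat1 and Nmnat3 did not. Without library 43, edgeR called 19 genes (0.12%) and 0 of the 10. The log2 fold changes were then 0.15 ± 0.06 for Nampt, 0.10 ± 0.06 for Mycbp2, 0.04 ± 0.05 for Fbxo45 and -0.02 ± 0.07 for Stmn2, none of them called, and those of the other 6 are given with each gene.

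The runs of library numbers were then compared with WT one at a time. They share the 4 WT libraries, so their values are set side by side and do not support each other. Within the run numbered 41 to 47, the 3 MFN2 libraries and the 4 WT libraries differed in 1 of 15200 genes (0.00658%), the pseudogene Rpsa-ps10, named after its value was seen, and in 0 of the 10. In the same fit, 0 of the 10 had an unadjusted p under 0.05. That level was reached by 1083 genes, or 7.12%, 787 of them higher and 296 lower. DESeq2 called 5 genes (0.0329%) and 0 of the 10. Without library 43, edgeR called 1 of 14988 genes and 0 of the 10, and the log2 fold change was -0.02 ± 0.09 for Nmnat2, -0.37 ± 0.33 for Nmnat3, 0.08 ± 0.09 for Nampt, 0.10 ± 0.08 for Fbxo45, 0.03 ± 0.08 for Map3k12, -0.12 ± 0.08 for Map3k13 and -0.04 ± 0.10 for Stmn2. Between the 5 MFN2 libraries 72 to 76 and WT, edgeR called 3746 of 15743 genes, which is 23.8%, and 3 of the 10. The 10 genes thus lay near the share of all genes called. Of the 10, 2 were higher, Nampt and Mycbp2, where 11.1% of all genes were, and 1 was lower, Nmnat1, where 12.7% were. With scaling by library size alone, 2822 of 4167 calls were higher, against 1746 of 3746 with TMM, and 2 of the 10 were called, again Nampt and Mycbp2. DESeq2 called 4252 genes and the same 3 of the 10. Fitted with the remaining MFN2 libraries in 3 groups, 1224 genes were called and 0 of the 10, and without a filter on low counts 4157 genes and 0 of the 10.

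With the genotype held, the 5 MFN2 libraries 72 to 76 differed from MFN2 libraries 41 to 43 in 342 of 15633 genes (2.19%), and in 0 of the 10. An unadjusted p under 0.05 was found for 0 of the 10 and for 3840 genes, or 24.6%. DESeq2 called 1795 genes (11.5%) and 0 of the 10. Without library 43, 2375 of 15509 genes (15.3%) and 0 of the 10 were called. The log2 fold change of Sarm1 moved from -0.01 ± 0.13 to 0.15 ± 0.09 without it, that of Nmnat1 from 0.01 ± 0.16 to -0.16 ± 0.14 and that of Map3k12 from -0.11 ± 0.12 to 0.05 ± 0.07, and the other 7 moved by less than their standard errors with it. Without library 43 these were at -0.05 ± 0.07 for Nmnat2, -0.03 ± 0.30 for Nmnat3, 0.11 ± 0.08 for Nampt, 0.14 ± 0.06 for Mycbp2, -0.08 ± 0.06 for Fbxo45, -0.03 ± 0.08 for Map3k13 and 0.03 ± 0.08 for Stmn2. The calls with TMM were higher for 157 of 342 genes, and with library size alone for 281 of 386. The intervals of 9 genes lay within 0.5 of 0 on the log2 scale here, all but that of Nmnat3.

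**Figure D4:**
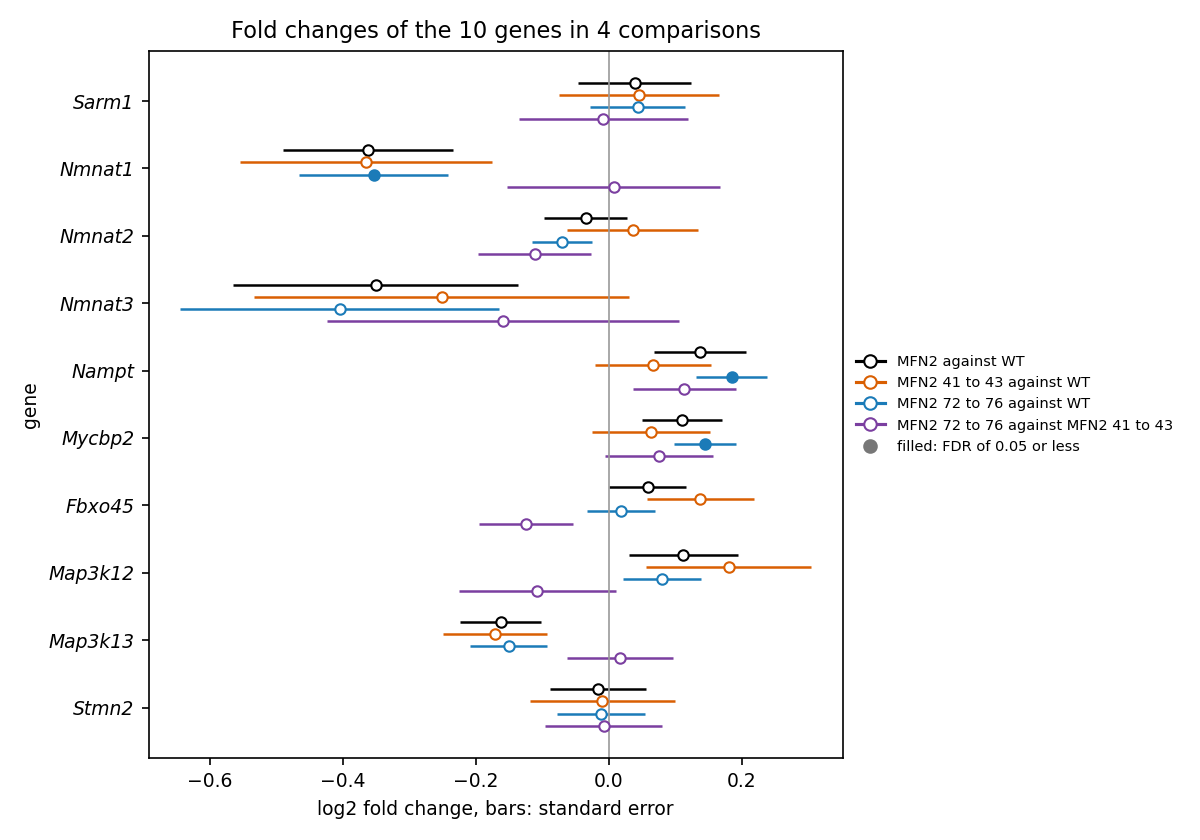
Log2 fold changes with standard errors (bars) of the 10 genes in MFN2 against WT (black), MFN2 libraries 41 to 43 against WT (orange), 72 to 76 against WT (blue) and 72 to 76 against 41 to 43 (purple), with filled points at an FDR of 0.05 or less. The filled points are Nmnat1, Nampt and Mycbp2 in libraries 72 to 76 against WT, and the first 3 comparisons share the WT libraries.

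Sarm1, the executioner enzyme, was close to WT in mean in MFN2 mice. Its level was 29.1, 27.2, 28.5 and 28.7 CPM in WT libraries 44 to 47. In MFN2 libraries it ranged from 25.4 to 34.2 CPM with a median of 29.1 CPM. Of the 8 MFN2 libraries, 4 lay above every WT library and 3 below every WT library, and the highest was library 43, with 31.4 CPM the highest among the other 7. Its log2 fold change was 0.04 ± 0.08 (SE, 8 MFN2 and 4 WT libraries), with a 95% interval from -0.14 to 0.22 (edgeR, FDR = 0.839), and 0.00 ± 0.07 without library 43. In libraries 41 to 43 against WT it was 0.05 ± 0.12, and -0.10 ± 0.09 without library 43. In libraries 72 to 76 it was 0.04 ± 0.07.

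Nmnat2, the labile axonal survival factor, did not differ beyond the spread either. It was at 201, 196, 210 and 189 CPM in WT libraries 44 to 47 and at 179 to 215 CPM in MFN2 libraries, with a median of 192 CPM. In the MFN2 group, 2 libraries lay above every WT library and 4 below, and library 43 was the highest, with 212 CPM the highest among the other 7. Over all 8, the log2 fold change was -0.03 ± 0.06, with an interval from -0.17 to 0.10 (edgeR, FDR = 0.797), and it was above 0, at 0.015, with scaling by library size alone and, at 0.019, with the run as a covariate. Without library 43 it was -0.06 ± 0.05 (FDR = 0.549). Libraries 72 to 76 were close together, from 183 to 195 CPM, within or below the WT range, at -0.07 ± 0.05 (FDR = 0.280).

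Nmnat1, the nuclear paralogue, was lower in most MFN2 mice than in WT, short of the threshold. It was counted at 6.24, 7.39, 8.33 and 7.41 CPM in WT libraries 44 to 47, from 142 to 188 reads. In MFN2 libraries it ranged from 4.13 CPM in library 43, where it rested on 88 reads, to 6.64 CPM in library 42, with a median of 5.88 CPM. Of the 8 MFN2 libraries, 6 lay below every WT library, and libraries 42 and 74 lay above WT library 44 alone. This gave a log2 fold change of -0.36 ± 0.13 (edgeR, FDR = 0.278), and -0.31 ± 0.11 without library 43 (FDR = 0.147). In libraries 41 to 43 it was -0.36 ± 0.19, and -0.19 ± 0.16 without library 43. In libraries 72 to 76, at 5.10, 5.57, 6.32, 6.00 and 5.76 CPM, Nmnat1 fell by 0.35 ± 0.11 on the log2 scale (edgeR, FDR = 0.0375), with 4 of 5 below every WT library. This call held without library 44 (FDR = 0.0147) and was lost without each of the other 8 libraries, 45 to 47 and 72 to 76, at an FDR from 0.0504 to 0.121.

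Nmnat3, the mitochondrial paralogue, had the fewest reads of the 10 genes, 22 to 44 per library. It was at 1.70, 1.41, 1.46 and 2.30 CPM in WT libraries and at 0.885 to 1.64 CPM in MFN2 libraries, with a median of 1.42 CPM. On the log2 scale its fold change was -0.35 ± 0.21, with an interval from -0.81 to 0.11 (edgeR, FDR = 0.428), and without library 43 it was -0.40 ± 0.23 (FDR = 0.326). This interval is wide, and depth and the spread between mice were not tested apart.

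Nampt makes NMN, the substrate of the 3 Nmnat enzymes, from nicotinamide. It was at 47.3, 50.1, 47.8 and 51.4 CPM in WT libraries 44 to 47. In libraries 72 to 76 it was at 55.0, 57.6, 52.3, 55.0 and 59.95 CPM, all above every WT library. Levels without overlap were found for 3117 genes, or 19.8%, in this comparison. Nampt rose by 0.18 ± 0.05 on the log2 scale (edgeR, FDR = 0.0249). The call was lost without WT library 46 (FDR = 0.0731) and held without each of the other 8 libraries, and in the fit of 3 groups the FDR was 0.101. MFN2 libraries 41 to 43, at 56.4, 46.7 and 49.7 CPM, lay above, below and within the WT range, at 0.07 ± 0.09 (FDR = 0.774). Over all 8 MFN2 libraries the log2 fold change was 0.14 ± 0.07 (FDR = 0.357).

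**Figure D5:**
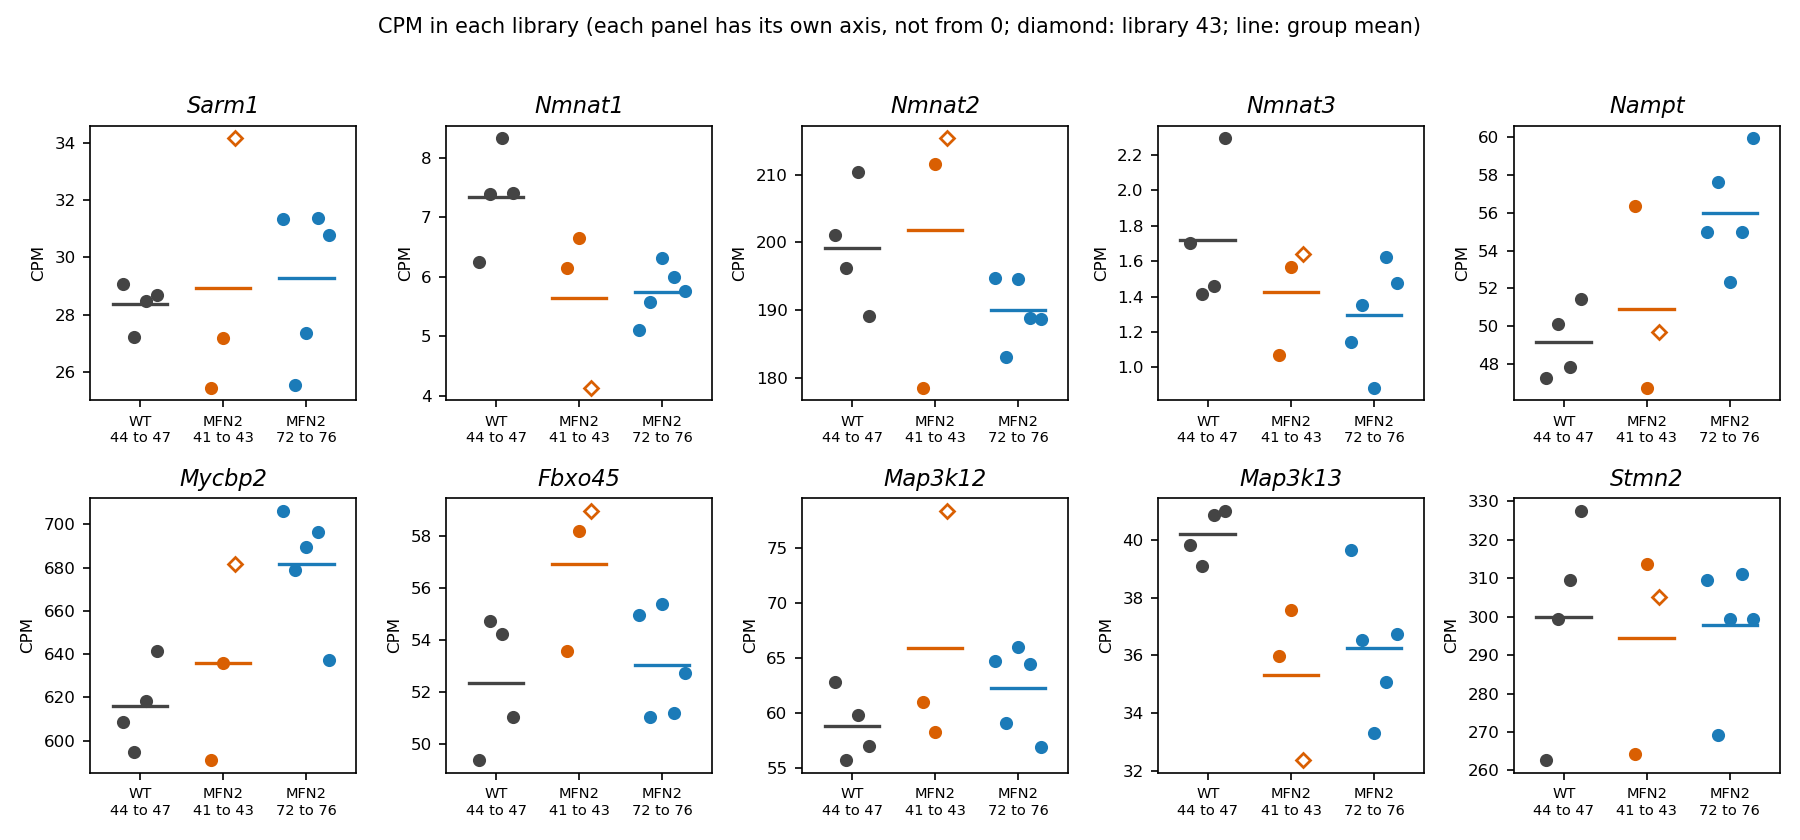
CPM of each gene in every library for WT 44 to 47 (grey), MFN2 41 to 43 (orange) and MFN2 72 to 76 (blue), with a line at each group mean, library 43 as an open diamond and an axis of its own in each panel, not from 0. All 5 libraries 72 to 76 lie above WT for Nampt, and 7 of 8 MFN2 libraries lie below WT for Map3k13.

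Mycbp2 and Fbxo45 form the atypical ubiquitin ligase that marks Nmnat2 for degradation. Mycbp2, the large scaffold subunit, was at 609, 595, 618 and 642 CPM in WT libraries 44 to 47 and at 706, 679, 690, 696 and 637 CPM in libraries 72 to 76. Of these 5 libraries, 4 lay above every WT library, and library 76 did not. Mycbp2 rose by 0.14 ± 0.05 on the log2 scale (edgeR, FDR = 0.0420). Its call held without library 47 (FDR = 0.0384) or 76 (FDR = 0.0174) and was lost without each of libraries 44, 45, 46, 72, 73, 74 and 75, at an FDR from 0.0558 to 0.124. In libraries 41 to 43, at 591, 636 and 681 CPM, the log2 fold change was 0.06 ± 0.09, and 0.00 ± 0.07 without library 43. Over all 8 it was 0.11 ± 0.06 (FDR = 0.383).

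Fbxo45, the substrate receptor of the same ligase, was at 49.4, 54.7, 54.2 and 51.03 CPM in WT libraries and at 51.02 to 59.0 CPM in MFN2 libraries, with a median of 54.3 CPM. The 4 highest of all 12 libraries were MFN2 libraries, and the other 4 of that group fell within the WT range. Its log2 fold change was 0.06 ± 0.06 (edgeR, FDR = 0.622). Its processed pseudogene Gm15358, 94.99% identical over 459 bases, held 0 or 1 read per library.

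Map3k12 and Map3k13 encode the dual leucine zipper kinases DLK and LZK, which carry the injury signal along the axon to JNK and hasten the loss of Nmnat2. Map3k12 was at 62.8, 55.7, 59.8 and 56.98 CPM in WT libraries 44 to 47. In MFN2 libraries it ranged from 56.9 to 78.4 CPM with a median of 62.7 CPM. The highest level was that of library 43, and the highest among the other 7 was 66.0 CPM. Map3k12 had a log2 fold change of 0.11 ± 0.08 (edgeR, FDR = 0.503), and 0.06 ± 0.06 without library 43 (FDR = 0.535). Map3k12 shares 1573 exon bases, 17.5% of its own, with Pcbp2 on the opposite strand, which held 2477 to 3978 reads, and the strand setting of the counting was not given in the sources used here.

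Map3k13 was lower in most MFN2 mice. It was at 39.8, 39.1, 40.9 and 41.01 CPM in WT libraries 44 to 47. MFN2 libraries 41 to 43 were at 36.0, 37.6 and 32.4 CPM, and libraries 72 to 76 at 39.6, 36.5, 33.3, 35.1 and 36.8 CPM. Of the 8 MFN2 libraries, 7 lay below every WT library, and library 72 fell within the WT range. For all genes tested, levels without overlap between the 8 and the 4 libraries numbered 326, or 2.04%, and none of the 10 was among them. The log2 fold change of Map3k13 was -0.16 ± 0.06 (edgeR, FDR = 0.279), and -0.14 ± 0.05 without library 43 (FDR = 0.169). In libraries 41 to 43 the levels did not overlap with WT, as for 1363 genes or 8.97% in that comparison, at -0.17 ± 0.08 (FDR = 0.622). In libraries 72 to 76 it was -0.15 ± 0.06 (FDR = 0.0778). The FDR was 0.0405 without library 72. This was the only call under 13 alternatives, with an FDR of up to 0.342 in the others. Map3k13 shares 227 exon bases, 2.61% of its own, with 1300002E11Rik on the same strand.

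Stmn2, a tubulin-binding protein of growing and regenerating axons that is turned over with Nmnat2, stayed within the WT range. It was at 263, 299, 310 and 328 CPM in WT libraries 44 to 47 and at 264 to 314 CPM in MFN2 libraries, with a median of 302 CPM. Every one of the 8 MFN2 libraries lay between WT libraries 44 and 47. The log2 fold change was -0.02 ± 0.07, with an interval from -0.17 to 0.14 (edgeR, FDR = 0.923), and was above 0, at 0.035, with scaling by library size alone.

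How the 10 genes vary together was described over the 11 libraries other than 43, after the mean of each genotype and run was subtracted from the log2 CPM. Among the 45 pairs, Pearson's r ranged from -0.87 for Nmnat2 and Nampt to 0.65 for Nmnat2 and Fbxo45. Without library 43, libraries 41 and 42 alone form the first MFN2 run, so after subtraction their values mirror each other. They lay far apart for Nmnat2 (log2 CPM 7.48 and 7.73) and Nampt (5.82 and 5.55), and the part of this pair of libraries in each r was not tested. Sarm1 and Nmnat2 gave an r of 0.35, and Mycbp2 and Fbxo45, of the same ligase, 0.20. Across 15941 other genes, the patterns most like that of Sarm1 were those of Btbd19 (r = 0.92), Tldc1 (r = 0.92) and Slc45a4 (r = 0.91). The patterns most like that of Nmnat2 were those of Zfp655 (r = 0.96), Gm5526 (r = 0.95) and Acsl5 (r = 0.95). The values rest on 11 libraries with totals from 19359454 to 26738930, and among so many genes high values of r are found for any gene, so these are descriptions only.

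Other genes of the pathway were taken from 5 written lists. In edgeR, 0 of them were called in MFN2 against WT and 0 in libraries 41 to 43 against WT. DESeq2 called 1 in the first, Map2k7, a kinase that activates JNK, which was lower (log2 fold change -0.27, FDR = 0.0424), and 0 in the second. Where not said otherwise, the counts that follow refer to libraries 72 to 76 against WT, where 23.8% of all genes were called. Of 23 genes of NAD+ synthesis and use, 13 were tested, 0 rose and 3 fell. These were Naprt, which opens the route from nicotinic acid, Nadk2, the mitochondrial NAD+ kinase, and Slc25a51, the mitochondrial NAD+ carrier. Naprt fell by 0.65 ± 0.18 on the log2 scale, from 3.77 ± 0.650 CPM in WT (SD, n = 4) to 2.40 ± 0.365 CPM (SD, n = 5; edgeR, FDR = 0.0186). Nadk2 fell by 0.39 ± 0.06, from 80.2 ± 3.62 to 61.3 ± 4.36 CPM (edgeR, FDR = 0.00094), and Slc25a51 by 0.14 ± 0.04, from 61.5 ± 1.24 to 55.9 ± 1.10 CPM (edgeR, FDR = 0.0313). The call of Nadk2 was lost in the fit of 3 groups (FDR = 0.145), and that of Slc25a51 there, with library size alone and without a filter (FDR = 0.0840, 0.265 and 0.162). It was also lost without each of libraries 46, 47, 73, 74 and 75, and the call of Naprt was lost without library 45 (FDR = 0.0637). DESeq2 also called 0 higher and 3 lower, while with library size alone 3 were higher, Sirt1, Parp2 and Nt5e, and 2 lower, so that the one-sided direction of this list depends on the scaling. The median log2 fold change of the list was 0.05, against 0.00 over all genes. In MFN2 against WT, 1 of the 13 was higher and 1 lower at an unadjusted p under 0.05, and in libraries 41 to 43 against WT 1 was higher and 0 lower. Over all genes these shares were 15% and 7.12%.

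Of 18 genes of the kinase cascade around Map3k12 and Map3k13, 17 were tested, 1 rose and 5 fell. Tnik, a kinase upstream of JNK, rose by 0.33 ± 0.05 on the log2 scale, from 193 ± 7.69 to 242 ± 7.42 CPM (edgeR, FDR = 0.000695), with all 5 libraries above WT. The transcription factor gene Jun fell by 0.38 ± 0.07, from 87.9 ± 8.62 to 67.6 ± 4.68 CPM (edgeR, FDR = 0.00318), with all 5 below WT. Map2k7 fell by 0.31 ± 0.06, and the scaffold gene Mapk8ip1 by 0.29 ± 0.06 (edgeR, FDR = 0.00494 and 0.00435). Mapk8ip2 fell by 0.28 ± 0.06 and Mapk9, which encodes JNK2, by 0.13 ± 0.04 (edgeR, FDR = 0.00479 and 0.0378), both named after their values were seen. The call of Tnik was lost in the fit of 3 groups (FDR = 0.1398). That of Mapk9 was lost there (FDR = 0.392), with library size alone (FDR = 0.350), without a filter (FDR = 0.142) and without each of the 9 libraries in turn, at an FDR from 0.0523 to 0.0969. The other 4 were called under all 13 alternatives tried. DESeq2 called 2 higher and 5 lower, and with library size alone 4 were higher, Tnik, Mapk10, Map2k4 and Atf4, and 4 lower. In MFN2 against WT, the log2 fold changes of Tnik and Jun were 0.32 and -0.31 (FDR = 0.278 and 0.262). There, 1 of the 18 was higher and 4 lower at an unadjusted p under 0.05, where 15% of all genes passed, and in libraries 41 to 43 against WT 0 of 17, where 7.12% of all genes did. The median log2 fold change of the list was 0.01.

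Of 6 genes that act with the ligase or set the palmitoylation of Nmnat2, 1 rose and 1 fell. Rae1, a partner of Mycbp2, rose by 0.24 ± 0.06, from 18.6 ± 0.756 to 22.1 ± 0.549 CPM (edgeR, FDR = 0.0119), and Lypla2, a depalmitoylating enzyme, fell by 0.41 ± 0.06, from 29.7 ± 1.18 to 22.5 ± 1.41 CPM (edgeR, FDR = 0.00121). Lypla2 was called under all 13 alternatives, and the call of Rae1 was lost in the fit of 3 groups (FDR = 0.0856) and without a filter (FDR = 0.0666). DESeq2 and scaling by library size alone each gave 2 higher and 1 lower. Among the 3 other stathmins, Stmn3 fell by 0.19 ± 0.06, from 448 ± 40.8 to 393 ± 13.7 CPM (edgeR, FDR = 0.0316), and the other 2 did not pass. The call of Stmn3 was lost with library size alone (FDR = 0.115), in the fit of 3 groups (FDR = 0.159) and without each of libraries 45, 46 and 72 to 76, at an FDR of up to 0.1002. Without library 44, Stmn1 was also called lower, at -0.42 ± 0.09 (FDR = 0.00464). Of 10 genes of calpains, caspases and Bcl2 proteins, 0 rose and 2 fell. Capn1, a calcium-dependent protease, fell by 0.32 ± 0.10, from 39.0 ± 6.15 to 31.3 ± 2.09 CPM (edgeR, FDR = 0.0299), and this call was lost with library size alone (FDR = 0.0628), in the fit of 3 groups (FDR = 0.312) and without each of libraries 45, 46, 47, 73, 74 and 75, at an FDR of up to 0.0730. Bcl2l2, an anti-apoptotic gene, fell by 0.27 ± 0.05, from 75.2 ± 3.18 to 62.2 ± 3.15 CPM (edgeR, FDR = 0.00338), under all 13 alternatives. Casp6, a caspase gene, was called higher without library 44, at 0.63 ± 0.20 (FDR = 0.0318). Leaving out other single libraries added 1 higher call each, of Atf4 without library 72, Skp1a without library 73 and Nt5e without library 75, and testing without a filter added Cd38, which was lower. In MFN2 against WT at an unadjusted p under 0.05, 1 of the 6 ligase and palmitoylation genes was higher and 1 lower, 0 of the 3 stathmins passed, and of these 10 genes 0 were higher and 1 lower, against 15% of all genes. In libraries 41 to 43 against WT, 0 of these 19 reached that level, against 7.12% of all genes. The median log2 fold changes were 0.08 for the ligase and palmitoylation genes, -0.19 for the stathmins and -0.02 for the 10 genes.

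Between the runs of MFN2 libraries, edgeR called Bcl2l2 alone of these 5 lists when library 43 was included, 1 of 50 genes tested, where 2.19% of all genes were called. It fell by 0.37 ± 0.07 on the log2 scale from libraries 41 to 43, at 79.4 ± 2.25 CPM (SD, n = 3), to libraries 72 to 76 (edgeR, FDR = 0.0366), and libraries 41 to 43 were at 0.09 ± 0.07 against WT. The call between the runs was found under 3 of 12 alternatives, with an FDR of up to 0.117 in the others, and with single libraries left out it held without library 43 alone. Without library 43, edgeR called 15.3% of all genes and 8 genes of the lists, out of 50 tested. Of the 8, Tnik and Rae1 were higher in libraries 72 to 76, and Bcl2l2, Nadk2, Slc25a51, Mapk8ip1, Jun and Stmn1 lower. With all libraries in the fit of 3 groups it called 8.4% of all genes and, of the lists, Bcl2l2, Slc25a51 and Lypla2, all lower. DESeq2 called 11.5% of all genes and, of the lists, the same 3 and Stmn1, also lower. Stmn1, Casp6, Skp1a, Cd38, Sirt1, Parp2, Nt5e, Mapk10, Map2k4 and Atf4 were named after their values were seen.

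Markers of other cells moved in the same comparisons. Between the runs of MFN2 libraries, microglial markers summed to 168, 105 and 169 CPM in libraries 41 to 43, all above libraries 72 to 76. All 6 of them had negative log2 fold changes with an unadjusted p under 0.05, where 24.6% of all genes passed, 2208 of 3840 of them lower, and edgeR called Cx3cr1, a chemokine receptor gene of microglia, from 34.5 to 21.3 CPM (log2 fold change -0.72 ± 0.15, FDR = 0.0496), a call found under 5 of 12 alternatives, with an FDR of up to 0.136 in the others. In the fit of 3 groups 3 of the 6 were called lower, without library 43 also 3, and in DESeq2 5. The count was 2 without a filter and 4 without library 42. It was 0 with library size alone and 0 without each of libraries 41 and 72 to 76. Against WT, 5 of 6 microglial and 4 of 6 astrocyte markers were called lower in libraries 72 to 76, where 12.7% of all genes were. Among them were C1qa, from 16.0 to 8.99 CPM, and Gfap, from 2066 to 978 CPM. Of 12 neuronal markers, 2 were called higher and 1 lower. Of 7 forebrain markers tested 1 was higher, and of 6 endothelial markers 1 was lower. No motor neuron, caudal Hox, oligodendrocyte or Schwann cell marker was called. In the fit of 3 groups, where 7.68% of all genes were called, 3 microglial and 0 astrocyte markers were called lower. With library size alone, where 26.5% of all genes were called, 3 and 2 were called lower. With single libraries left out, 3 to 5 microglial markers were, 3 without each of libraries 45 to 47 and 72 to 75, and 2 to 5 astrocyte markers, 2 without library 45. Whether these shifts bear on the listed genes was not tested.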

How the data were processed

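The authors trimmed paired-end reads and mapped these with STAR (GRCm38). They deposited raw counts per Ensembl gene, without normalization. The counting tool, its strand setting and the annotation release are not given in the sources used here, so counts of overlapping genes are uncertain. Symbols, exon lengths and coordinates were taken from GENCODE M21, and promoter windows from RefSeq, which held 7 of the 10 genes. Of the listed genes, Pnp had no match by symbol.

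Counts of genes above 1 CPM in at least 3 of the libraries fitted were tested over all such genes after TMM scaling, using the quasi-likelihood functions (legacy and robust) of edgeR 4.0.16 under R 4.3.3, with Benjamini-Hochberg adjustment at an FDR of 0.05. Each comparison was fitted on its own libraries. Standard errors were derived from the F statistic. CPM and RPKM used TMM-scaled library sizes, and log2 CPM a prior count of 2. The script was tested on simulated data. Libraries of a genotype differed beyond sampling noise (mean chi-square per gene of at least 5.34 in each pair). At totals of 19359454 to 26738930, genes near 1 CPM rest on few reads.

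The 10 genes and all lists were chosen with earlier results of these data known. The text names the 10 genes, up to 4 called genes with the largest change from each list, the most abundant gene of each marker list where it is discussed, and 3 genes most like Sarm1 and Nmnat2. The lists held NAD+ metabolism, the kinase cascade, turnover of Nmnat2, stathmins and axon death genes, and markers of 9 cell types or regions. Endothelial markers summed to 133 to 156 CPM in WT and 110 to 181 CPM in MFN2 libraries, with Cldn5 most abundant per length. The values of 1 marker gene are not reported here. Alternatives were no filter, library size only, DESeq2 1.42.0, the run as a covariate or a fit of 3 groups, and each library left out. For called genes of the 5 pathway lists, these were added after seeing the data.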

Additional observations from a re-analysis of the deposited data

Results flagged for a closer look

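Within groups of 4 to 10 libraries, a library was singled out when its gap to the nearest other, divided by the range of the group, passed Dixon's 95% critical value. Of 44 groups of values examined, 3 passed, where chance gives about 2.2. In MFN2 mice, library 43 was the highest for Map3k12, at 78.4 CPM, with a gap of 0.577 of the range. The same library was the highest in the sum of forebrain markers, at 4685 CPM, with a gap of 0.985 of the range. Library 41 was the highest MFN2 library in the sum of astrocyte markers, at 8465 CPM, with a gap of 0.595 of the range. The part of these libraries in the other results was not tested beyond leaving each of them out.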

How the results depend on the processing

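Of the 10 genes, 0 were called in MFN2 against WT, in libraries 41 to 43 against WT and in libraries 72 to 76 against 41 to 43 under every alternative tried. In libraries 72 to 76 against WT the count of 3 became 0 without a filter on low counts and 0 in a fit of 3 groups, and 0 to 2 with single libraries left out. The cause of these changes was not tested. No paired analysis was possible because the labels give no pairs of MFN2 and WT mice.

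Counts over all genes moved more. DESeq2 called 200 genes in MFN2 against WT (0 in edgeR), 5 in libraries 41 to 43 against WT (1 in edgeR) and 1795 between the runs of MFN2 libraries (342 in edgeR). Without a filter the second of these was 0. In the fit of 3 groups the counts were 0 for libraries 41 to 43, 1224 for libraries 72 to 76 and 1339 between the runs. With single libraries left out they were 0 to 19 for MFN2 against WT, highest without library 43, 0 to 2 for libraries 41 to 43, and 2350 (without library 45) to 4517 (without library 44) for libraries 72 to 76. Between the runs they were 31 (without library 74) to 2375 (without library 43).

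Log2 fold changes close to 0 changed sign, none of them called. In MFN2 against WT, Nmnat2 was at 0.015 and Stmn2 at 0.035 with library size only, and Stmn2 ranged from -0.075 to 0.029 with single libraries left out. The value of 0.019 for Nmnat2 with the run as a covariate sets libraries 41 to 43 against WT, so it is not the same comparison. In libraries 41 to 43 against WT, leaving out single libraries gave Sarm1 -0.099 to 0.14, Nmnat2 -0.020 to 0.12, Nampt -0.0037 to 0.12 and Stmn2 -0.065 to 0.070. In libraries 72 to 76 against WT, library size only gave Nmnat2 0.00070 and Stmn2 0.060, and leaving out single libraries gave Fbxo45 -0.0094 to 0.039 and Stmn2 -0.071 to 0.035. Between the runs, Sarm1 was at 0.0031 without a filter, 0.068 with library size only, 0.0038 with DESeq2 and 0.018 in the fit of 3 groups, and Stmn2 at 0.00038, 0.066, 0.0017 and 0.016. There, leaving out single libraries gave Sarm1 -0.075 to 0.15, Nmnat1 -0.16 to 0.14, Map3k12 -0.20 to 0.054, Map3k13 -0.030 to 0.058 and Stmn2 -0.064 to 0.044. Among libraries left out singly, 43 gave the value farthest from the main one for Sarm1, Nmnat1, Map3k12 and Map3k13 between the runs.

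The fewest reads were those of Nmnat3, 22 to 44 per library, and Nmnat1, 88 to 188, and what depth adds to their spread was not tested. RPKM with library size only stayed within 1 SD for each of the 10 genes. No called gene of the 5 pathway lists changed sign in the comparison that called it.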
